A study of Mus musculus with 6 samples.

Results

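Myelin and committed oligodendrocyte genes were followed across cultures of a mouse glioma line. The set held 9 genes, Mbp, Mag, Mog, Cnp, Mal, Enpp6, Bcas1, Mobp and Gpr17, taken by symbol from the 54446 genes listed. Levels are UMIs (unique molecular identifiers, each marking 1 captured RNA molecule) summed over called cells, and shares are percentages of cells with at least 1 UMI. GL261, an established mouse glioma line labelled as a glioblastoma cell, was grown in a differentiation medium with fetal calf serum and gave 2 libraries. GL261-GSCs, derived from it and labelled as a glioblastoma stem cell, were kept in a defined medium for such cells and gave 4 libraries. Both groups are cultures of 1 line, so growth medium and derivation cannot be told apart. Nothing in the labels says whether libraries of a group came from separate cultures, so p-values measure only the spread between these libraries, which may be technical.

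Oligodendrocytes arise from proliferating precursor cells that carry the receptor Pdgfra. A precursor that commits to differentiation passes through a short stage marked by Gpr17, Bcas1 and Enpp6, and then switches on the lipids and proteins of myelin, the membrane that ensheathes axons. The transcription factors Olig2 and Sox10 are present throughout the lineage, and Myrf drives the myelin genes in cells that differentiate. In gliomas these genes are read as signs of oligodendrocyte-like differentiation.

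Promoters of 6 members, Mag, Mog, Cnp, Mal, Enpp6 and Mobp, were searched in RefSeq (GRCm38.p6, from 250 bases before to 50 bases after the start site). Both strands were searched for letters that Myrf, Sox10 and the Olig factors are known to prefer. Promoters of Mbp, Gpr17 and Bcas1 were not searched, so nothing is said of Mbp, whose level moved the same way as Mal. The Myrf letters CTGGCAC or CTGGTAC occurred in 3 of the 6, Mag, Mog and Cnp, against 7.096% of all 32851 mouse promoters in the table. Their first base lay 68 bases before the start site in Mag, 83 before it in Mog, where the letters run on the opposite strand as GTACCAG, and 81 before it in Cnp. The Sox letters ACAAAG or ACAATG occurred in Mag, Cnp, Enpp6 and, at 6 positions, in Mobp, against 28.6% of all promoters. The Olig-type letters CAGCTG or CAGATG occurred in 30.57% of all promoters and in none of the 6. The stretches outside the first exon are shown for the 3 promoters with the Myrf letters, because these genes share that match, and for Mal, which holds none of the motifs and whose level moved the other way from Cnp and Mog. Capitals mark the Myrf and Sox letters. A match is a run of letters and does not show binding.
Mag, chr7:30914874-30915113, minus strand: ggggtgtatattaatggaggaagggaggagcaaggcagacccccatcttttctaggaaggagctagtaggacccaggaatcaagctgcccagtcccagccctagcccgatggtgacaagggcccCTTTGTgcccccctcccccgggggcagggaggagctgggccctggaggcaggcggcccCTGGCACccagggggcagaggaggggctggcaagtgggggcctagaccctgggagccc
Mog, chr17:37023399-37023648, minus strand: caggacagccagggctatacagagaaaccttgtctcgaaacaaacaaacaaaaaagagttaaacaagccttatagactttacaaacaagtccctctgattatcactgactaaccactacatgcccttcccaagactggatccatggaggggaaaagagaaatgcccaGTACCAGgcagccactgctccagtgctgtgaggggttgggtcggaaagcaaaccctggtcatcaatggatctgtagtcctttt
Cnp, chr11:100574689-100574903, plus strand: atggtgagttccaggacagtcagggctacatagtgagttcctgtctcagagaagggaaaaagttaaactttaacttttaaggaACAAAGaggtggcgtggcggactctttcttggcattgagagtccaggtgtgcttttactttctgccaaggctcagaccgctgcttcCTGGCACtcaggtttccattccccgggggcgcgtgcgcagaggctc
Mal, chr2:127656696-127656945, minus strand: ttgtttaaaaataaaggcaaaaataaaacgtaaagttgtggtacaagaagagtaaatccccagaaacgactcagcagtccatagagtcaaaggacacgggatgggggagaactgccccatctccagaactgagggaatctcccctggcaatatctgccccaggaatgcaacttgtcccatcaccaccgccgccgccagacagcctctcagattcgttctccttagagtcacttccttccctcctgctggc

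Called cells numbered 4264 to 7275 per library and held 33320530 to 79472306 UMIs in all, with a median of 6670 to 15478 UMIs per cell. GL261-GSCs replicate 4 was the shallowest library on both measures. Pairs of libraries shared 32 to 59 cell barcodes, where independent draws from the barcode list would give 26.1 to 57.9. The median mitochondrial share of a cell was 1.0004% and 0.953% in the GL261 libraries and 1.04%, 1.11%, 1.26% and 1.35% in the GL261-GSCs libraries, with no overlap, and its part in the differences between the cultures was not tested. The lineage factor Sox10 stood between 304 and 382 CPM in all 6 libraries, whereas Olig2 was at 0.918 and 0.0166 CPM in GL261 and between 401 and 787 CPM in GL261-GSCs. The labels name brain as the tissue, but the material is a cultured line. Sox10, which Schwann cells also use, was thus present in both groups, whereas Olig2 exceeded 1 CPM in GL261-GSCs alone.

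The genes lie on 7 chromosomes of the mouse genome (GRCm38, GENCODE M21 annotation), all as protein-coding genes. Mbp lies at chr18:82475146-82585637, Gpr17 at chr18:31942997-31949636, Mag at chr7:30899176-30914873 and Mog at chr17:37010743-37023398. Cnp lies at chr11:100574904-100591729, Mal at chr2:127633226-127656695, Bcas1 at chr2:170346991-170427845, Enpp6 at chr8:46986887-47096762 and Mobp at chr9:120149707-120181484. Exons of 4 members overlap those of another gene: Cnp with Dnajc7, Bcas1 with the antisense genes Bcas1os1 and Bcas1os2, and Gpr17 with Lims2, all on the other strand, and Mobp with Gm38642 on the same strand. Whether counting used strand is not given here, so reads of these partners could be mixed. Lims2 itself was measured at 8.46 CPM in GL261 and 11.8 CPM in GL261-GSCs, with an adjusted p of 0.376 in edgeR's quasi-likelihood test. The Mbp gene also makes longer transcripts, called golli, from an upstream start, and counts per gene do not separate them.

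In GL261-GSCs, 5 of the 9 genes rose against GL261 (Cnp, Mog, Bcas1, Gpr17 and Mobp) and 2 fell (Mbp and Mal). Mag and Enpp6 did not pass the test. The differences were large, from 3.28-fold for Bcas1 to 60.6-fold for Mog among the called genes that rose and had more than 3 UMIs in each group, and 3.83-fold for Mbp and 17.3-fold for Mal among those that fell. So the myelin genes did not move as a block: transcripts of 2 structural membrane proteins were highest in the cultures with serum. Across all 18439 genes tested, 29.9% were called, 15.8% as higher and 14.1% as lower. All 9 members passed the filter on low counts. Mobp (1 UMI in GL261, 210 in GL261-GSCs) and Mag (9 and 214) passed it through GL261-GSCs alone. A rise was thus the only direction open to Mobp and Mag. The median log2 fold change was 2.61 over the members and 0.04 over all genes.

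Gpr17 encodes a G protein-coupled receptor of committed precursors that is lost again when myelin forms. Its level was 0.207 and 0.232 CPM in the GL261 libraries and 7.26, 10.3, 10.8 and 10.1 CPM in GL261-GSCs replicates 1 to 4. All 4 GL261-GSCs libraries lay far above both GL261 libraries, and replicate 1 was the lowest of the 4. The log2 fold change was 5.44 (SE 0.32), with an adjusted p of 0.000115 in edgeR's quasi-likelihood test. The GL261 libraries together held 28 Gpr17 UMIs.

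Bcas1 encodes a myelin-associated protein that marks oligodendrocytes beginning to myelinate. Its level was 36.7 and 37.5 CPM in GL261 and 66.5, 114, 143 and 163 CPM in GL261-GSCs. The groups did not overlap, but the GL261-GSCs libraries were spread widely, with replicate 1 at less than the level of each other library of its group. The log2 fold change was 1.72 (SE 0.36, edgeR adjusted p = 0.0128). Leaving out GL261 replicate 1 gave an adjusted p of 0.104.

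Enpp6, a choline-specific phosphodiesterase of newly formed oligodendrocytes, was close to the limit of detection throughout. Its UMIs numbered 18 in GL261 and 27 in the 4 GL261-GSCs libraries, or 0.148 and 0.133 CPM against 0.0152, 0.0966, 0.175 and 0.137 CPM. The ranges overlapped. The log2 fold change was -0.41 (SE 0.74, edgeR adjusted p = 0.704), and a difference was not detectable at this depth.

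Cnp encodes a cyclic nucleotide phosphodiesterase of the cytoplasm-rich layers of myelin and is an early gene of the program. It was at 29.5 and 29.6 CPM in GL261 and at 189, 149, 193 and 191 CPM in GL261-GSCs. The libraries of each group were close together, and replicate 2 was the only GL261-GSCs library under 189 CPM. Cnp rose by 2.61 on the log2 scale (SE 0.17, edgeR adjusted p = 0.000155), or 6.12-fold.

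Mog encodes an immunoglobulin-domain glycoprotein of the outermost myelin surface, usually a late marker of the lineage. Its level was 0.978 and 0.563 CPM in GL261 and 19.6, 32.4, 70.1 and 65.9 CPM in GL261-GSCs. Replicates 3 and 4 were at about the same level as each other and above replicates 1 and 2, and no GL261-GSCs library came near GL261. The log2 fold change was 5.92 (SE 0.74, edgeR adjusted p = 0.00178). Mag, a sialic acid-binding adhesion molecule that faces the axon, was at 0 and 0.149 CPM in GL261 and at 0.152, 0.497, 1.41 and 1.51 CPM in GL261-GSCs, from 9 and 214 UMIs. GL261-GSCs replicate 1 was level with GL261 replicate 2, and the log2 fold change of 3.58 (SE 1.36) had an adjusted p of 0.090 in edgeR. Mag was called higher by DESeq2 (adjusted p = 0.0127), in edgeR with no filter on low counts (0.0411) and without GL261-GSCs replicate 1 (0.0340).

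Mbp, the basic protein that compacts the myelin membrane, was at 142 and 237 CPM in GL261 and at 70.6, 42.3, 34.5 and 50.7 CPM in GL261-GSCs. Every GL261 library was above every GL261-GSCs library, and the GL261 libraries also differed from each other. Mbp fell by 1.94 on the log2 scale (SE 0.31, edgeR adjusted p = 0.00480). Without GL261 replicate 2, the higher of the pair, the adjusted p was 0.0538.

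Mal, a proteolipid of membrane rafts that is also used by epithelial cells and Schwann cells, was at 27.8 and 61.0 CPM in GL261 and at 4.08, 4.84, 0.875 and 0.357 CPM in GL261-GSCs. The groups did not overlap, and GL261-GSCs replicates 3 and 4 were lower than replicates 1 and 2, the reverse of their order for Mog. Mal fell by 4.11 on the log2 scale (SE 0.90, edgeR adjusted p = 0.0151), and the adjusted p was 0.113 without GL261 replicate 2.

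Mobp, a further basic protein of compact myelin, was counted once in GL261 (1 UMI), against 210 UMIs over the GL261-GSCs libraries. Its level was 0.0148 and 0 CPM in GL261 and 0.546, 0.814, 1.24 and 0.440 CPM in GL261-GSCs. Every GL261-GSCs library was above both GL261 libraries at a low level. The ratio was 105 with a 95% counting interval of 18.7 to 4183, and the edgeR adjusted p was 0.00312.

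**Figure D1:**
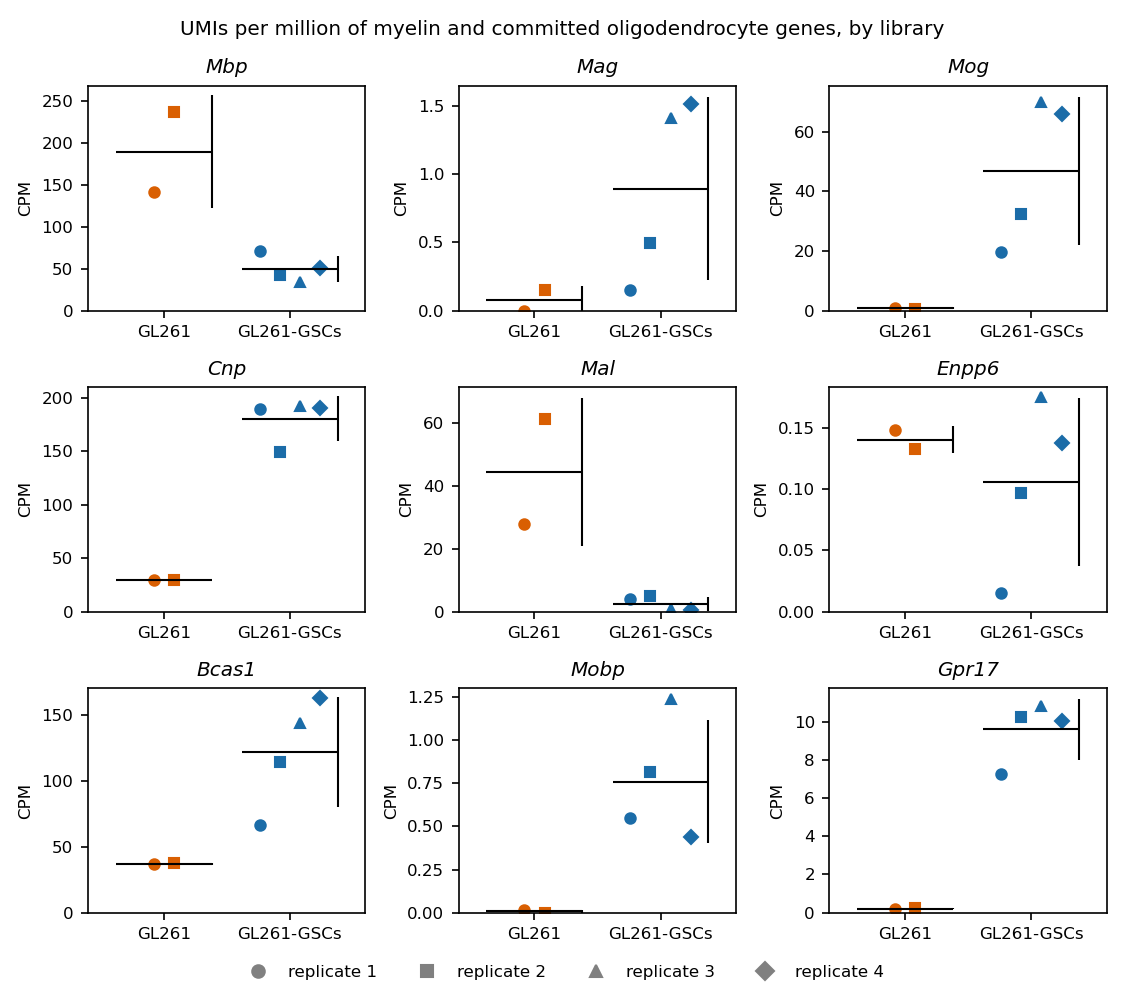
Each panel plots 1 gene in TMM-scaled CPM on a linear axis from 0, with a point for each library (2 of GL261, 4 of GL261-GSCs), a line at the group mean and a bar of 1 SD. Mbp and Mal stood higher in GL261, Cnp, Mog, Bcas1, Gpr17 and Mobp stood higher in GL261-GSCs, and Enpp6 overlapped.

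Of the 9 members, 8 had groups that did not overlap in CPM, against 56.7% of all genes tested. Mag is counted among the 8 by a narrow margin. It was at 0.149 CPM (9 UMIs) in GL261 replicate 2 and 0.152 CPM (10 UMIs) in GL261-GSCs replicate 1. Leaving out GL261 replicate 1 left 6 members called (4 higher and 2 lower). Leaving out GL261 replicate 2 left 4, all higher, with Bcas1, Mal and Mbp no longer called, while calls over all genes went from 5514 to 1817.

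Shares of cells showed the same opposite movements. When every cell was thinned to 2000 UMIs so that depth did not differ, Cnp was found in 5.05% and 4.998% of GL261 cells and in 29.9%, 24.8%, 28.2% and 29.4% of GL261-GSCs cells. Bcas1 was found in 6.63% and 6.88% against 12.2%, 20.6%, 25.4% and 30.5%. For both genes all GL261-GSCs libraries were above GL261, and Bcas1 differed more among them than Cnp did. Mog was found in 0.208% and 0.100% of GL261 cells and in 3.59%, 6.20%, 12.5% and 12.7% of GL261-GSCs cells. Gpr17 was found in 0.0624% and 0.0600% against 1.67%, 2.20%, 2.34% and 2.22%, so even in the stem cell medium it was seen in a small minority of cells at this depth.

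Mbp was found in 21.9% and 30.3% of GL261 cells at 2000 UMIs and in 13.3%, 8.55%, 7.13% and 10.8% of GL261-GSCs cells. Mal was found in 4.33% and 9.98% against 0.797%, 0.852%, 0.192% and 0.0443%. Both were found in fewer cells of every GL261-GSCs library than of either GL261 library. Mobp was seen in no GL261 cell, where 3 cells would be 0.0624% and 0.0600% and the exact 95% upper limits on cells with a UMI were 0.0767% and 0.0737%. It was seen in 0.0704%, 0.153%, 0.137% and 0.0665% of GL261-GSCs cells, and replicates 1 and 4 lay under those upper limits, so no difference in share was detectable for them at this depth. Mag was found in up to 0.0600% of GL261 cells and up to 0.355% of GL261-GSCs cells, with overlap, and Enpp6 in 0.0624% of cells or fewer in every library. Cells were called without removing doublets.

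Free RNA alone, estimated from nearly empty barcodes, would put Cnp in 0.259% and 0.261% of GL261 cells and in 1.48% to 4.38% of GL261-GSCs cells. For Mbp it would give 1.47% and 2.61% in GL261 and 0.447% to 1.18% in GL261-GSCs. The measured shares of Cnp, Mbp, Bcas1 and Mog in GL261-GSCs were several times those values in each of its libraries. Cnp was at 186 CPM in the free RNA of GL261-GSCs replicate 1 and at 189 CPM in its cells. For a gene at like levels in both, the measured share exceeds the estimate because called cells hold more UMIs. The comparison is therefore no test of free RNA.

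A UMI of at least 1 member was found in 38.6% ± 7.33 (SD, n = 2) of GL261 cells and in 52.2% ± 5.84 (SD, n = 4) of GL261-GSCs cells, a difference of 13.6 percentage points. The exact permutation test over libraries, 2-sided, gave p = 0.133, the smallest p this design allows, and 0.148 after adjustment over the 10 shares tested. Each member but Mag gave the same value, and Mag gave an exact p of 0.667. Without thinning the 2 GL261 libraries had shares of 84.1% and 89.1% and the 4 GL261-GSCs libraries 95.6%, 90.1%, 92.1% and 87.5%, so the groups overlapped, and the difference was 4.71 points.

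**Figure D2:**
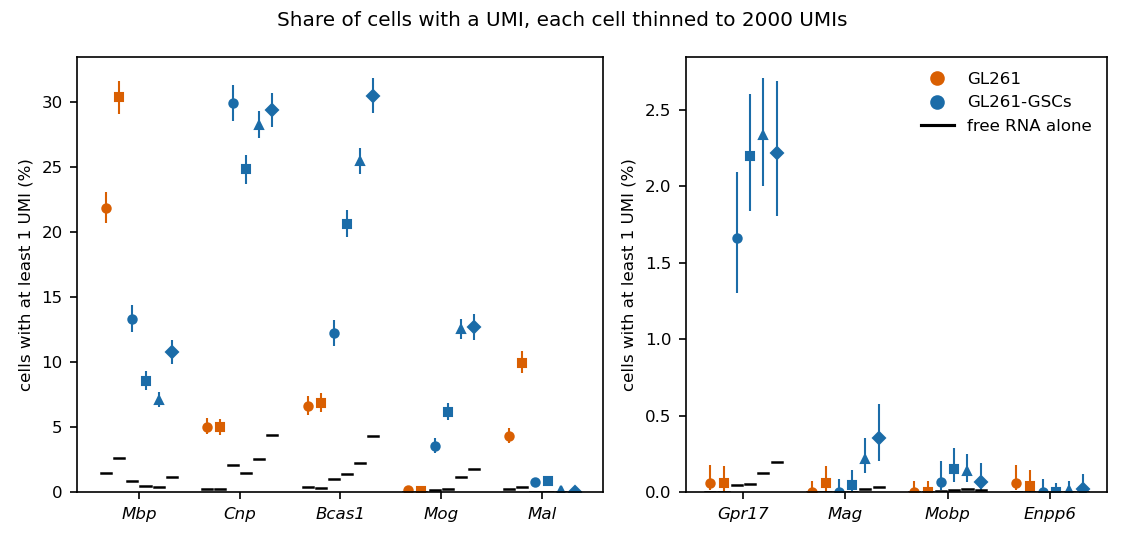
Percentage of cells with at least 1 UMI of each gene after thinning cells to 2000 UMIs, 1 point per library (replicates 1 to 4 as circle, square, triangle and diamond) with exact binomial 95% intervals that cover counting error only. Short black lines give the share that free RNA alone would give, and the panels have different scales.

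Transcripts of Mbp were spread unevenly among cells. The Fano factor (variance over mean of UMIs per cell at 2000 UMIs, near 1 for counting noise alone) was 1.69 and 1.96 for Mbp in GL261 and 1.19 to 1.84 in GL261-GSCs. For Cnp it was 1.03 and 0.996 in GL261 but 1.28 to 1.59 in GL261-GSCs. The factor can rise with the mean level, which differed between the cultures for both genes. These values therefore do not compare unevenness between the cultures. One GL261 cell held 79 Mbp UMIs and one GL261-GSCs cell 53 before thinning. In GL261-GSCs replicate 4 the 1% of cells with the most Mbp UMIs held 23.5% of them, against 7.26% in the deeper replicate 1.

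Cells with many Mbp transcripts were examined for the other members. At least 3 Mbp UMIs per 2000 were found in 89 and 178 GL261 cells and in 11, 18, 12 and 23 GL261-GSCs cells. In GL261-GSCs replicate 2, 94.4% of these cells (17 of 18) had Cnp, against 24.6% of the other cells, and 83.3% had Bcas1, against 20.4%. In replicate 3 the shares were 58.3% against 28.2% for Cnp and 66.7% against 25.4% for Bcas1, and in replicate 4 69.6% against 29.2% and 73.9% against 30.3%. Replicate 1 showed 36.4% against 29.9% for Cnp and 45.5% against 12.2% for Bcas1. In GL261 the cells with many Mbp transcripts had Cnp in 7.87% and 5.62%, against 5.001% and 4.98% of the others, and Bcas1 in 14.6% and 8.43%, against 6.48% and 6.82%. Mog was found in 9.09%, 44.4%, 41.7% and 8.70% of these cells in GL261-GSCs replicates 1 to 4, against 3.57%, 6.08%, 12.5% and 12.7% of the others, so replicate 4 went the other way. These cells were chosen for their Mbp count, are few in GL261-GSCs, and were shallower than the others in every library, so the shares are a description, and no difference between the cultures was tested.

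Pairs of members were seen together more often than the product of their shares in most comparisons. In GL261-GSCs the ratio of cells with both genes to that product was 1.34 to 1.57 for Mbp and Bcas1, 1.16 to 1.52 for Mbp and Cnp, 1.18 to 1.35 for Cnp and Bcas1, and 1.25 to 1.69 for Bcas1 and Gpr17, above 1 in all 4 libraries. Mog and Cnp gave 1.12 to 1.42. Mog and Bcas1 gave 0.961 to 1.42, above 1 in 2 libraries, and Mbp and Gpr17 gave 0.739 to 2.54. In GL261, Mbp and Cnp gave 1.02 and 1.04, while Cnp and Bcas1 gave 1.36 and 1.40. At least 3 different members were detected in 0.250% and 0.680% of GL261 cells and in 1.67%, 3.05%, 3.70% and 4.61% of GL261-GSCs cells at 2000 UMIs. No cell of any library had more than 6. The cells of a library share its free RNA and any doublets, and the part of these in the ratios was not tested.

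The other lists of lineage genes were compared in the same way. Of 12 precursor genes tested, 8 rose and none fell, with a median log2 fold change of 2.98. They included Ptprz1, a receptor phosphatase, at 0.0749 CPM in GL261 and 277 CPM in GL261-GSCs, Pdgfra at 6.40 and 124 CPM (log2 fold change 4.27, edgeR adjusted p = 0.00308), and the adhesion gene Pcdh15, which had 2 UMIs in GL261 and a ratio of 4766 (95% counting interval 1319 to 39361). Cacng4, with 1 UMI in GL261, had a ratio of 974 (95% counting interval 175 to 38500). In GL261-GSCs replicates 1 to 4, Pcdh15 was at 24.5, 6.03, 136 and 168 CPM and Cacng4 at 1.14, 1.97, 12.4 and 20.1 CPM. The counting intervals do not cover this spread between libraries. Ptprz1 (10 UMIs in GL261), Pcdh15 and Cacng4 passed the filter on low counts through GL261-GSCs alone, so a rise was the only direction open to them. Such genes are among those counted as higher in this and other lists, and they enter the list medians. At the other end of the program, 15 of 28 other myelin genes rose and 4 fell, with a median of 1.76. With 1 GL261 library left out, whichever it was, 5 precursor genes were called. Leaving out GL261 replicate 2 left 12 other myelin genes called, 10 higher and 2 lower.

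Among these other myelin genes, Opalin, a membrane protein of oligodendrocytes, went from 0.0471 to 34.0 CPM, Gpr37, a receptor of maturing oligodendrocytes, from 0.329 to 174 CPM, and Omg, a myelin glycoprotein, from 0.154 to 40.8 CPM, all called higher by edgeR. The 3 called genes that fell most were Klk6, a secreted protease, from 76 UMIs to none and so at least 50.5-fold lower against 3 UMIs over the group, the small heat shock protein Cryab, from 6286 to 570 CPM, and Pmp22, which is a major protein of Schwann cell myelin, from 144 to 24.4 CPM.

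Genes of the committed stage were mixed, with 3 higher and 4 lower of 13 tested and a median of 0.48. The balance was 5 higher and 3 lower with library size scaling, and 5 higher and 4 lower both with DESeq2 and without GL261-GSCs replicate 1. Myt1, a zinc finger factor, had 3 UMIs in GL261 and a ratio of 626. 9630013A20Rik, a noncoding RNA of committed precursors, went from 1.27 to 94.2 CPM and Tmem108 from 5.54 to 14.5 CPM. The falls were led by the GTPase gene Rras2, from 160 to 5.32 CPM, the membrane skeleton gene Epb41l2, from 243 to 45.5 CPM, and the guidance gene Sema5a, from 48.7 to 15.6 CPM.

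Among factors that activate the program, 7 of 13 rose and 1 fell, with a median of 0.79. Myrf was at 1.48 and 0.795 CPM in GL261 and at 17.8, 21.3, 27.2 and 33.9 CPM in GL261-GSCs, with no overlap and a log2 fold change of 4.45 (SE 0.42, edgeR adjusted p = 0.000613). Olig1, a relative of Olig2, was at 1.304 and 0.0166 CPM in GL261 and at 384, 838, 892 and 843 CPM in GL261-GSCs. Olig2 rose by 10.18 and Olig1 by 10.10 on the log2 scale. Both sizes depend on which GL261 library is used, as replicate 2 held almost no UMIs of either gene: the Olig2 value was 14.87 without GL261 replicate 1 and 9.24 without GL261 replicate 2. Zfp488, a corepressor that works with Olig2, had 1 UMI in GL261 and a ratio of 497. Zfp24 fell by 0.53. Sox10 had a log2 fold change of 0.00 (edgeR adjusted p = 0.986), with a sign that differed between settings. Genes listed as brakes on the program went both ways, 3 higher and 4 lower of 12, with a median of 0.02. The Notch target Hes5 rose from 0.0388 to 2.48 CPM, Gpr37l1 from 0.562 to 21.5 CPM and the transcription factor Tcf4 from 81.1 to 254 CPM. The place of Tcf4 among the brakes is uncertain, and the counts include it. Another Notch target, Hes1, fell from 34.6 to 1.90 CPM, the Notch ligand Jag1 from 53.2 to 16.9 CPM and Rtn4, which encodes Nogo, from 794 to 447 CPM. With either GL261 library left out, 2 of these genes were called, both lower.

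**Figure D3:**
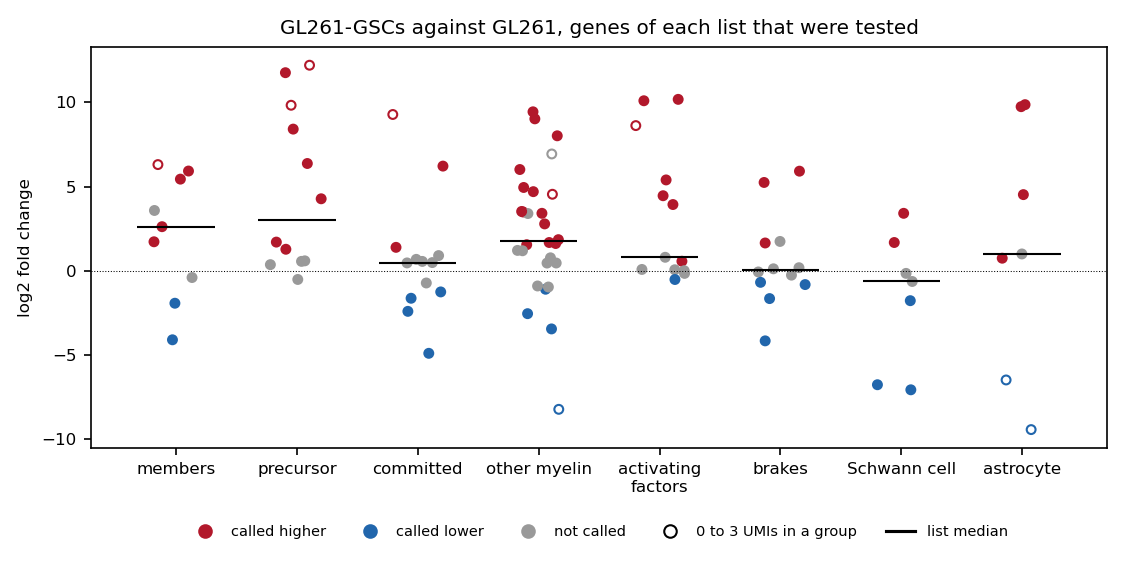
Log2 fold changes of GL261-GSCs over GL261 for each tested gene of 8 lists, with a line at the list median. Filled points are coloured by the edgeR call, and open points had 0 to 3 UMIs in a group, so that their fitted value is not a size. The medians stayed the same with those genes set at their bound or counting ratio.

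Markers of other cell types gave the following picture. Schwann cells share several myelin genes with oligodendrocytes, and of 7 such genes tested 2 rose and 3 fell. Among them Ngfr, a neurotrophin receptor, fell from 270 to 1.97 CPM and Prx from 3.65 to 1.07 CPM, whereas Cdh19 rose from 11.9 to 126 CPM. The summed level of the Schwann list was 291 to 362 CPM in GL261 and 193 to 255 CPM in GL261-GSCs. It moved with Mbp and Mal, and its part in their difference was not tested.

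Of 7 astrocyte markers tested, 4 rose, led by Fabp7 (from 0.0702 to 67.5 CPM), Slc1a3 (from 0.0815 to 74.8 CPM) and Aldoc (from 6.996 to 160 CPM), and 2 fell. These were Gfap, with 165 and 3 UMIs, and Aldh1l1, with 872 and 2 UMIs. Sox9 and Aqp4 were at 0 in every library. The summed astrocyte level was 97.8 to 104 CPM in GL261 and 386 to 570 CPM in GL261-GSCs, so it moved with the members that rose, and its part was not tested. Of 4 neuron markers tested 1 rose, Syt1, with 3 and 7942 UMIs, which was not called with either GL261 library left out. Of 3 myeloid markers 1 fell, Csf1r (from 12.8 to 0.227 CPM), while Ptprc, the common leukocyte antigen, had 2 and 4 UMIs and C1qa was at 0. Of 3 endothelial markers Flt1 rose (from 41.2 to 72.1 CPM) and Cdh5 fell (49 UMIs and 1 UMI), and Cldn5 was at 0. Leaving out either GL261 library, or GL261-GSCs replicate 3, left 1 endothelial gene called, lower. The 4 lymphoid markers together stayed at or under 0.199 CPM in every library, and none was tested.

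Over the 6 libraries, the genes whose level followed Cnp most closely were Met, a receptor tyrosine kinase gene, Acss1 and Arhgdig, with root mean square differences of 0.05, 0.11 and 0.12 in centred log2 CPM. The genes nearest to Mbp were Aebp1, Trim47 and Pdlim2, at 0.23, 0.24 and 0.24. Likeness was measured over the 9113 genes whose average log2 CPM reached 3, and says nothing of shared function. Since the libraries form 2 groups, a gene that differs between them to the same degree will rank high.

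Within GL261-GSCs, the members were lower in cells rich in cell cycle transcripts. Each library was divided by the summed UMIs of 35 cell cycle genes at 2000 UMIs, into 3 equal parts, and the part with most (cycle-high cells) was compared with the part with fewest (cycle-low cells). All 8 members that were tested fell in the cycle-high cells, by 0.46 to 1.10 on the log2 scale, against 22.2% of all 14777 genes called lower and 40.7% called in either direction. The median was -0.60 over the 8 members and -0.03 over all genes. Enpp6 had too few UMIs for the test.

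Mog was at 24.9, 39.8, 99.99 and 88.0 CPM in the cycle-low cells of replicates 1 to 4 and at 18.1, 31.0, 54.7 and 56.2 CPM in their cycle-high cells. It was lower in the cycle-high cells of each library, by 0.64 (SE 0.09, edgeR adjusted p = 0.00273). Cnp was at 213, 175, 254 and 256 CPM in the cycle-low cells and at 180, 140, 161 and 157 CPM in the cycle-high cells, and fell by 0.52 (SE 0.09, adjusted p = 0.00449) by the same edgeR test. Replicates 3 and 4 changed more than replicates 1 and 2 for both.

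Mbp was at 76.9, 54.7, 49.6 and 75.4 CPM in the cycle-low cells and at 72.3, 36.7, 29.8 and 35.1 CPM in the cycle-high cells, a fall of 0.66 (SE 0.14, edgeR adjusted p = 0.0109). Replicate 1 barely differed. Bcas1 was at 71.0, 130, 186 and 212 CPM against 64.6, 110, 125 and 129 CPM and fell by 0.46 (SE 0.10, edgeR adjusted p = 0.0102). Thus Mbp and Bcas1, which moved in opposite directions between the cultures, moved in the same direction here, and in all 4 libraries.

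Of the rarer members, Mag fell by 1.10 (SE 0.26, edgeR adjusted p = 0.0147) and was lower in CPM in 4 of 4 libraries. In replicates 1 to 4 it had 4, 12, 62 and 21 UMIs in the cycle-low cells. The cycle-high cells had 2, 12, 26 and 12, so the fall of Mag rests on replicates 3 and 4. Mobp fell by 0.95 (SE 0.31, edgeR adjusted p = 0.0454), Mal by 0.57 (SE 0.15, 0.0193) and Gpr17 by 0.49 (SE 0.16, 0.0429), each lower in 3 of 4 libraries. Gpr17 was at 7.79, 12.0, 14.8 and 14.98 CPM in the cycle-low cells and at 8.18, 9.94, 9.51 and 7.52 CPM in the cycle-high cells, so replicate 1 did not follow the others. Lims2, whose exons overlap those of Gpr17, also fell, from 17.1 to 9.61 CPM. Its part in the Gpr17 difference was not tested.

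**Figure D4:**
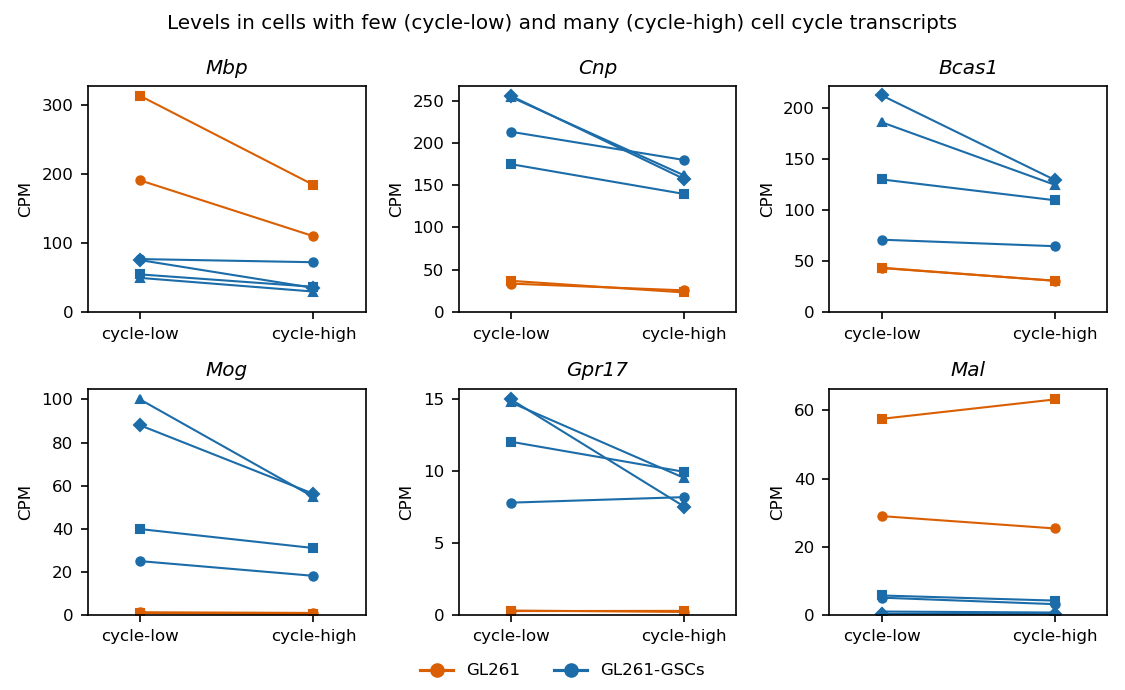
TMM-scaled CPM of 6 members in the cells with fewest (cycle-low) and most (cycle-high) cell cycle transcripts, on linear axes from 0, with a line joining the 2 parts of each library (replicates 1 to 4 as circle, square, triangle and diamond). For Mbp, Cnp, Bcas1 and Mog all 4 GL261-GSCs lines slope downward.

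These calls depended on the library block, which compares the 2 parts within a library, and on the number of libraries. Without the block no member was called at an adjusted p under 0.05 and 558 genes were called in all, with every member still lower. DESeq2 with the block called 5 members. Without GL261-GSCs replicate 3, only Cnp and Mog stayed called, and without replicates 1, 2 and 4 in turn 7, 5 and 6 members were called. The cycle-high cells had a median of 7564 to 16548 UMIs per cell and the cycle-low cells 7014 to 14348, and median mitochondrial shares of 1.07% to 1.40% and 1.04% to 1.24%. With every cell thinned to 2000 UMIs before summing, 5 members had enough UMIs to be tested and all 5 were called lower.

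Other lineage genes were counted in the same contrast. Of 12 precursor genes tested 5 rose in the cycle-high cells and none fell, against 18.5% of all genes called higher, led by Pdgfra (log2 fold change 0.81, SE 0.07, edgeR adjusted p = 0.000627), the matrix gene Vcan (0.34) and Ptprz1 (0.33). Cspg4 and Pcdh15, named after their values were seen, also rose, by 0.22 and 0.25. Of 23 other myelin genes none rose and 13 fell, led by Opalin (-0.99) and the septin gene Sept4 (-0.97). Of 13 committed genes 2 rose, Epb41l2 (0.31) and Tmem2 (0.30), and 4 fell, Lims2 (-0.67), Tmem108 (-0.46), 9630013A20Rik (-0.31) and the kinase gene Fyn (-0.25). The list medians were 0.01 for precursor genes, -0.25 for committed genes and -0.40 for other myelin genes, and the lists were not tested against each other. Without GL261-GSCs replicate 3, 2 precursor genes were called higher and 7 other myelin genes lower, and leaving out replicate 1 left 3 precursor genes called. Of 13 activating factors 3 fell, Olig1 (-0.77, edgeR adjusted p = 0.00136, from 984 to 583 CPM), Sox8 (-0.50) and Zeb2 (-0.18), and 3 rose, Smarca4 (0.37), Zfp24 (0.25) and Yy1 (0.22). Of 12 genes listed as brakes 4 fell, Gpr37l1 (-1.30), Hes1 (-0.95), Egfl7 (-0.54) and Tcf4 (-0.25), whose place in the list is uncertain. Jag1 (0.53) and Notch1 (0.23) rose. Myrf (log2 fold change -0.22, edgeR adjusted p = 0.111), Sox10 (-0.09, 0.288) and Olig2 (0.09, 0.249) did not pass the test.

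Markers of other cell types moved in this contrast too. Of 6 Schwann genes tested 1 rose, Cdh19 (0.22), and 3 fell, among them Ngfr (-1.64, from 3.55 to 1.10 CPM) and Pmp2 (-1.03, from 1.23 to 0.672 CPM), with a list median of -0.42. Of 5 astrocyte markers none rose and 2 fell, S100b (-0.85), which oligodendrocytes also express, and Aldoc (-0.53), with a median of -0.11. The only myeloid marker with enough UMIs for the test, the lysosomal gene Cd68, fell by 1.68, from 30.8 to 9.29 CPM. Of 2 neuron markers tested Tubb3 rose (0.41), and of 2 endothelial markers Flt1 rose (0.26). Their part in the members' difference was not tested.

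**Figure D5:**
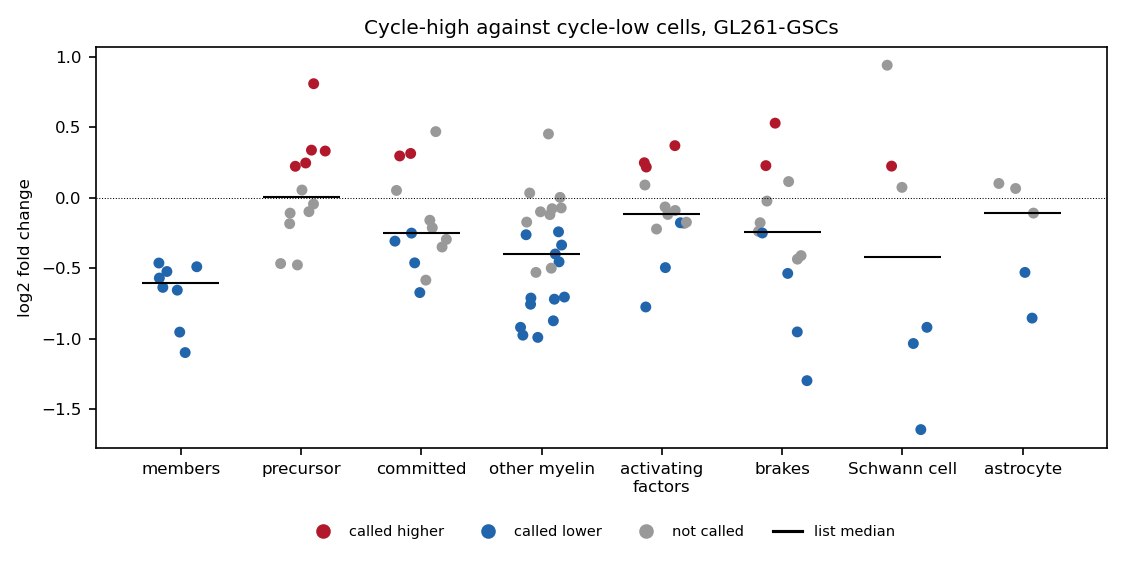
Log2 fold changes of cycle-high over cycle-low cells in GL261-GSCs for each tested gene of 8 lists, with a line at the list median and colours giving the edgeR call. All 8 members and 13 other myelin genes were called lower, and 5 precursor genes were called higher.

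In the 2 GL261 libraries the same contrast gave -0.78 (SE 0.17, edgeR adjusted p = 0.0174) for Mbp, -0.53 (SE 0.13, adjusted p = 0.0242) for Cnp and -0.50 (SE 0.13, adjusted p = 0.0336) for Bcas1, each lower in 2 of 2 libraries, against 8.08% of all 16341 genes called lower. Mbp there was at 191 and 314 CPM in the cycle-low cells and at 110 and 184 CPM in the cycle-high cells. Mal was at 29.0 and 57.5 CPM against 25.4 and 63.2 CPM, and did not pass the test (-0.02, edgeR adjusted p = 0.925). Mog (edgeR adjusted p = 0.168), Mag (0.298), Mobp (0.479) and Gpr17 (0.869) did not pass it either. The interaction term, which asks whether the contrast differs between the cultures, was called for 0.0184% of genes (3 genes) and for no member. Its smallest adjusted p among the members was 0.320 in edgeR, for Mal, with a difference of -0.51 (SE 0.17), and 1 of the 8 members tested had an unadjusted p under 0.05.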

How the data were processed

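RNA of single cells was measured in droplets from the 5' end. The authors deposited unfiltered UMI counts, which per the file headers came from Cell Ranger 4, and the submitters' processing notes name the mm10 build. Annotation release and strand settings are not given here. Per the labels' protocols the cultures were dissociated and lysed before capture, and whether cells or nuclei were loaded is not stated.

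Barcodes counted as cells when their UMIs reached 10% of the 99th percentile among the 3000 largest, with at least 500 genes and under 10% mitochondrial UMIs. Free RNA was taken from barcodes with 100 to 999 UMIs. Counts were summed per library and compared with the edgeR 4.0.16 quasi-likelihood test in R 4.3.3 (TMM, filterByExpr, Benjamini-Hochberg over all genes tested, 2-sided, called at an adjusted p under 0.05). CPM use the TMM-scaled library size. The SE was back-calculated from the F statistic and can look too precise for genes with few UMIs. Genes with 1 to 3 UMIs in a group are given by a ratio with a 95% counting interval or by their UMIs alone. Genes at 0 have a bound against 3 UMIs over the group. Shares used cells thinned to 2000 UMIs, with Clopper-Pearson intervals, and exact permutation tests in scipy 1.17.1. Intervals cover counting error only. The cell cycle contrast was fitted with the library as a block. The members and gene lists were chosen with earlier results of these data known. Named genes were all members, up to 3 called genes with the largest rise and fall per list, Sox10, Olig2, Myrf and Pdgfra, and the 3 genes most like the 2 members with the highest mean CPM. Outside this rule, further genes called in the cell cycle contrast were named from its results. Lims2 was named for its exon overlap, and a few markers for having almost no UMIs. Some genes counted in the lists are not reported here by name.

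The tests were tested on simulated data with 200 genes changed by 2 on the log2 scale. For the group comparison (18439 genes) 164 were recovered with 6 false calls among 170. For the cell cycle contrast (14777 genes) 197 were recovered with 5 false calls among 202. Recovery of smaller changes was not tested, and every member tested in the cell cycle contrast changed by less than 2 on the log2 scale. Alternatives covered limma-voom (limma 3.58.1), DESeq2 1.42.0, scaling, filters, cell calling, thinning, cell cycle groups, blocks and each library left out. Thinning before summing was added after seeing the data.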

Additional observations from a re-analysis of the deposited data

Results flagged for a closer look

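In groups of 4 libraries, a value was singled out when its gap to the nearest other exceeded Dixon's 95% limit, as a part of the whole range, which chance does in about 1 of 20 groups. Of 61 groups of values examined this way, 5 held such a value, so most of these may be chance. Among the members this held for Cnp in GL261-GSCs replicate 2, at 149 CPM against 189 to 193 CPM in the other 3. Among the other named genes it held for Olig1 in replicate 1, at 384 CPM against 838 to 892 CPM, for Ngfr in replicate 1, at 5.13 CPM against 0.769 to 1.09 CPM, for Csf1r in replicate 4, at 0.192 CPM against 0.235 to 0.243 CPM, and for Cdh5 in replicate 2, at 0.0138 CPM from 1 UMI against 0 in the others.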

How the results depend on the processing

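The count of members called between the cultures, 7, was 6 to 8 in the 10 alternatives that kept all libraries, 7 among them with the replicate number as a block. It was 4 to 8 when each library was left out in turn. The labels do not say whether the numbers pair the samples. Deviations of same-numbered libraries from their group means correlated at -0.03 and 0.04. This cannot decide it, as the deviations of 2 GL261 libraries mirror each other. Of 8 members called in the cell cycle contrast, DESeq2 called 5, the fit with no library block 0 and thinned sums 5 (5 tested), and leaving out each library gave 2 to 7. Without a filter, with library size scaling, limma-voom, 4 equal parts or mitosis genes alone it stayed 8. No member's log2 fold change changed sign in either contrast. Without thinning, the share with at least 1 member differed by 4.71 points. With cells thinned to 2000 UMIs and each library left out in turn, it differed by 8.42 to 18.8 points. Enpp6's share difference turned to 0.0223 points with every barcode of at least 2000 UMIs. Sox10, near 0 between the cultures, became 0.14 with library size scaling, 0.0049 with a 5% mitochondrial limit, 0.11 with the block, 0.012 with GL261-GSCs libraries in 2 sums, 0.041 with thinned sums, and lay between -0.069 and 0.054 with each library left out. Olig2 became -0.019 in the cell cycle contrast with thinned sums. Precursor calls between the cultures went from 8 to 5 with limma-voom or without either GL261 library, and other myelin calls from 19 to 12 without GL261 replicate 2. Calls of the committed list went from 7 to 11 with the replicate number as a block. The causes were not tested. With 2 GL261 libraries, precision is limited, and Mag, Mobp and Enpp6 rest on few UMIs.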
